A study of Mus musculus with 23 samples.

Results

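Blood cell fate is set by a small group of transcription factors that act as rivals and as partners. GATA1 and KLF1 drive the red cell program, GATA2 keeps stem cells and early progenitors in place and gives way to GATA1 as erythroid cells mature, PU.1 (encoded by Spi1) and C/EBPα open the myeloid program, and GATA1 and PU.1 bind and inhibit each other. Downstream, IRF8 directs monocytes and dendritic cells, GFI1 and C/EBPε direct neutrophils, GFI1B is the erythroid and megakaryocytic paralog of GFI1, and RUNX1 is needed for the formation of blood stem cells and for megakaryocytes and lymphocytes.

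Messenger RNA of these 10 genes, Gata1, Gata2, Klf1, Spi1, Cebpa, Cebpe, Irf8, Gfi1, Gfi1b and Runx1, was examined in bone marrow of mice with changes at the tyrosine Y665 of STAT5B, a signal transducer of cytokine receptors. The 10 were chosen by symbol from the 32285 genes of the table, and all 10 were found. Their unique molecular identifiers (UMIs, each standing for 1 captured RNA molecule) were summed over the barcodes of a library, a barcode being the tag of 1 droplet and nominally 1 cell. They were summed again over the Kit-positive barcodes, those with at least 1 UMI of Kit, the stem cell factor receptor that marks stem and progenitor cells.

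The marrow came from C57BL/6 mice (C57BL/6N in the study's methods) aged 2 months in 3 groups of 2 libraries. WT carried the natural tyrosine, Y665F carried phenylalanine placed by CRISPR/Cas9 with an oligonucleotide that also held a silent base change, and Y665H carried histidine placed by an adenine base editor. The labels used here do not give the zygosity of the marrow mice, a sort of the cells or whether animals were pooled, so p-values measure the spread between these libraries. The comparison asks whether the 2 substitutions move these factors and in which direction.

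Each library kept 4093 to 15910 barcodes with 16399123 to 55768078 UMIs in all before filtering. Pairs of libraries shared 64 to 336 barcode sequences. Replicate 1 of each genotype held the female transcript Xist at 233 to 780.5 counts per 1000000 UMIs (CPM) and replicate 2 the male transcript Ddx3y at 22.4 to 46.5 CPM, so the sexes were balanced over the genotypes, although the study's methods name male mice. The 2 libraries of a genotype therefore came from different animals, and sex is part of their spread. Kit-positive barcodes made up 19.3% and 13.0% of kept barcodes in Y665H, 26.8% and 13.5% in WT, and 31.3% and 37.1% in Y665F. Kit itself, which chose these barcodes, stood at 58.6 and 69.7 CPM over all kept barcodes in Y665H, 95.9 and 62.5 in WT, and 134.9 and 196 in Y665F. T cell markers summed to no more than 3.95 CPM in Kit-positive barcodes. Over all kept barcodes 4 mature neutrophil markers summed to 91.8 and 73.3 CPM in Y665H, 23.2 and 80.3 in WT, and 2449 and 806 in Y665F. In WT 4 B cell markers summed to 68.6 and 104 CPM and 4 T cell markers to 5.41 and 3.23. Whether the cells were enriched before capture was not settled, so all kept barcodes are not taken as whole marrow.

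The genes lie on 8 chromosomes of the GRCm38 build. Gata1 spans chrX:7959260-7978071 and Gata2 chr6:88193891-88207032. Klf1 (chr8:84901928-84905291) and Irf8 (chr8:120736358-120756694) share a chromosome, as do Spi1 (chr2:91082390-91115756) and Gfi1b (chr2:28609450-28621982). Cebpa is at chr7:35119293-35121928, Cebpe at chr14:54710360-54712174, Gfi1 at chr5:107716657-107726036 and Runx1 at chr16:92601466-92826149.

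The promoters of the members were searched for the letters that GATA factors and STAT5 prefer, because both kinds of factor are at issue here. A promoter was taken as 250 bases before to 50 after a RefSeq transcript start (GRCm38.p6), and 12 promoters of 8 members were found, with none for Spi1 and Cebpe. A GATA motif (GATA with A or T before it and A or G after it, on either strand) stood in 2 of the 12 and in 29.8% of all 32851 promoters. The STAT motif TTCNNNGAA, which reads the same on both strands, stood in 2 of the 12 and in 8.30% of all. The 3 promoters that held either motif are shown in stretches of 100 bases upstream of the start, written along the gene's strand from 5′ to 3′, with GATA and STAT motifs in capitals. The motifs do not overlap in these stretches, and a match describes letters only.
Klf1, chr8:84901822-84901921, plus strand, GATA motif on the minus strand: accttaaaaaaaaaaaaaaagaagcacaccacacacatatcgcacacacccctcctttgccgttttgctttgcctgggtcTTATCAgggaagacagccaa
Gfi1b, chr2:28622083-28622182, minus strand, STAT motif and then GATA motif: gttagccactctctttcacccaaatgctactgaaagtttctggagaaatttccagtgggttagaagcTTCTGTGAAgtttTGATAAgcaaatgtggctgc
Irf8, chr8:120736158-120736257, plus strand, 2 STAT motifs: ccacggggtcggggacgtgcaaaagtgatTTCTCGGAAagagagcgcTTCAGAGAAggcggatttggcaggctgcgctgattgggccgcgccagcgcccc

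In Kit-positive barcodes, 8 of the 10 factors differed between Y665F and WT. Gata1, Klf1 and Gfi1b, the erythroid group, were lower, while Gata2, Cebpa, Cebpe, Gfi1 and Runx1 were higher, and Spi1 and Irf8 did not pass. Of all 11725 genes tested, 27.8% passed in this comparison, 12.9% higher and 14.9% lower, with a median log2 fold change of 0.0398, so a broad difference surrounded that of the factors. The share of genes that passed was 11.3% without Y665F replicate 2 and 17.8% without WT replicate 2. Between Y665H and WT none of the 10 passed, and 0% of all genes did. In these sums a change of a factor's RNA within cells and a change in the mix of cells cannot be told apart.

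The erythroid factors come first. Gata1 stood at 114 and 73.4 CPM in the Y665H libraries (replicates 1 and 2 throughout), 125 and 96.0 in WT, and 40.0 and 32.7 in Y665F. Both Y665F libraries lay below the other 4, and the WT and Y665H libraries overlapped. The fall from WT to Y665F was -1.73 on the log2 scale (SE 0.252, edgeR quasi-likelihood test, adjusted p = 0.000161).

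Klf1, the activator of adult globin genes, stood at 119 and 85.0 CPM in Y665H, 140.5 and 87.9 in WT, and 40.9 and 27.4 in Y665F. Its libraries were ordered as those of Gata1, with a log2 fold change of -1.85 (SE 0.270, adjusted p = 0.000161 by edgeR). Gfi1b, which represses genes of other lineages in erythroid and megakaryocytic cells, stood at 54.4 and 32.9 CPM in Y665H, 71.4 and 37.5 in WT, and 24.0 and 16.7 in Y665F. Here too the Y665F libraries were the lowest 2, with a log2 fold change of -1.53 (SE 0.278, adjusted p = 0.000812). For all 3 factors replicate 1 of each genotype was higher than replicate 2.

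Gata2 and Runx1 moved the other way. Gata2 stood at 25.7 and 26.9 CPM in Y665H, 36.1 and 33.4 in WT, and 88.3 and 125 in Y665F. The 3 genotypes did not overlap, but both Y665H libraries lay under both WT libraries in 30.4% of all genes. The step from WT to Y665F was 1.46 on the log2 scale (SE 0.229, edgeR adjusted p = 0.00027). The step from WT to Y665H was -0.18 (SE 0.238, edgeR adjusted p = 0.945).

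Runx1 stood at 29.2 and 50.3 CPM in Y665H, 78.2 and 40.6 in WT, and 137 and 199.8 in Y665F. The WT and Y665H libraries overlapped, and both Y665F libraries lay above all others. The log2 fold change was 1.38 (SE 0.287, adjusted p = 0.00198).

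**Figure D1:**
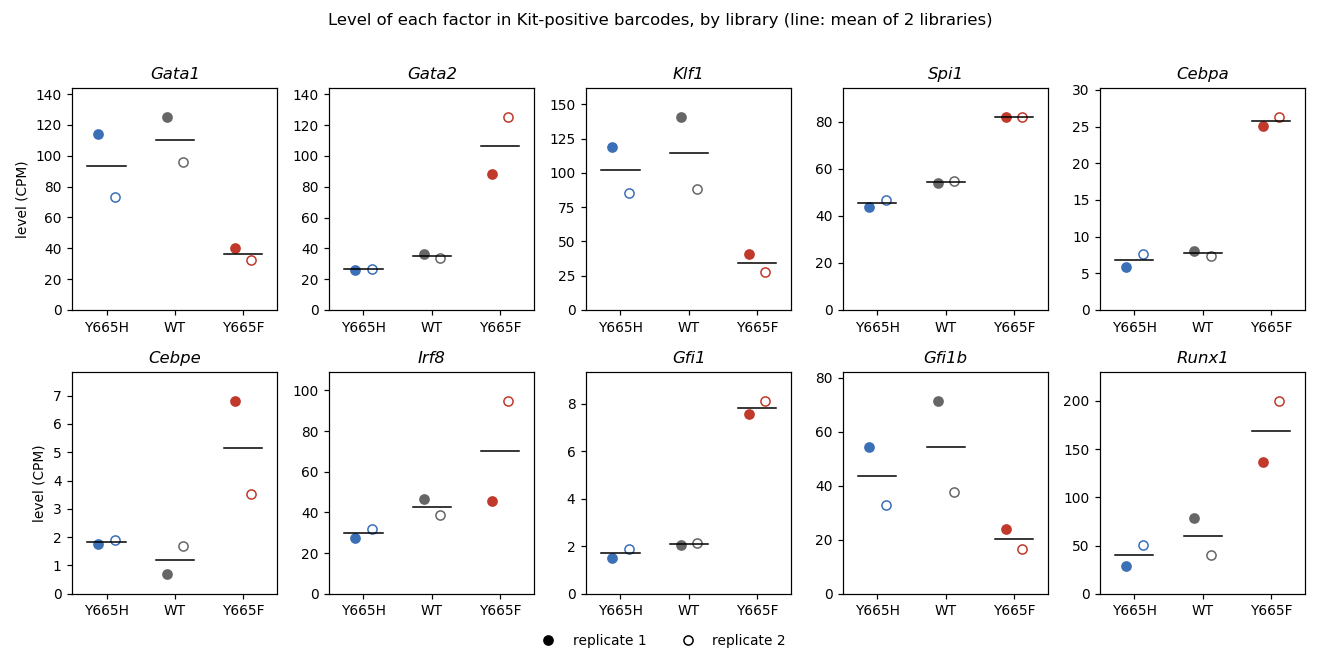
Level of each factor in Kit-positive barcodes (vertical axis, CPM, from 0) by genotype, with 1 point per library, replicate 1 filled and replicate 2 open, and a line at the mean of 2 libraries. The Y665F points lie below the other 4 for Gata1, Klf1 and Gfi1b and above them for the rest except Irf8, where a WT library at 46.6 CPM exceeds a Y665F library at 45.8. The share of all genes whose libraries separate in this way was not counted.

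Among the myeloid factors, Cebpa passed the test. It stood at 5.88 and 7.61 CPM in Y665H, 8.08 and 7.41 in WT, and 25.1 and 26.3 in Y665F. The rise from WT to Y665F was 1.59 on the log2 scale (SE 0.266, adjusted p = 0.000437). Spi1, its partner, stood at 43.8 and 47.0 CPM in Y665H, 54.2 and 55.0 in WT, and 82.0 and 81.9 in Y665F. The 3 genotypes of Spi1 did not overlap in CPM, which lacks the scaling between libraries that the fit used. Both Y665H libraries lay under both WT libraries in 30.4% of all genes, and the share with 3 separate genotypes was not counted. The log2 fold change of Spi1 for Y665F against WT was 0.44 and did not pass (SE 0.220, adjusted p = 0.141).

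Irf8 stood at 27.6 and 32.1 CPM in Y665H, 46.6 and 38.7 in WT, and 45.8 and 94.8 in Y665F. The Y665F libraries differed by more than the genotypes, and the log2 fold change of 0.56 against WT did not pass (SE 0.263, adjusted p = 0.115). Without Y665F replicate 1 it was 0.91 and passed (adjusted p = 0.0110).

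The neutrophil factors were sparse. Gfi1 had 14 and 7 UMIs in Y665H, 12 and 9 in WT, and 138 and 132 in Y665F. This is 1.53 and 1.90 CPM, 2.06 and 2.15 CPM, and 7.57 and 8.12 CPM, with a log2 fold change of 1.77 for Y665F against WT (SE 0.371, adjusted p = 0.00206).

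Cebpe, which switches on the secondary granule genes, had 16 and 7 UMIs in Y665H, 4 and 7 in WT, and 124 and 57 in Y665F, or 1.74 and 1.90 CPM, 0.69 and 1.67 CPM, and 6.81 and 3.51 CPM. The log2 fold change of 2.08 passed (SE 0.539, adjusted p = 0.00827). It was lost without WT replicate 1 (1.30, adjusted p = 0.147) and without Y665F replicate 1 (1.38, adjusted p = 0.122).

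Markers of mature neutrophils moved with these factors. All 4 of the list (S100a8, S100a9, Retnlg and Mmp8) were detected in every Kit-positive sum, at 25.4 and 81.0 CPM together in Y665H, 7.22 and 17.9 in WT, and 1284 and 700.2 in Y665F. Their part in the levels of Cebpe, Gfi1 and Cebpa was not tested.

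Over all kept barcodes, Kit-positive or not, the same 8 factors passed between Y665F and WT, against 30.6% of 13675 genes (12.7% without Y665F replicate 2 and 17.3% without WT replicate 2). The log2 fold changes were -1.52 for Gata1, -1.85 for Klf1, -1.38 for Gfi1b, 1.505 for Gata2, 1.28 for Runx1, 1.59 for Cebpa, 1.49 for Gfi1 and 1.31 for Cebpe. Spi1 (0.16, adjusted p = 0.572) and Irf8 (0.10, adjusted p = 0.774) again did not pass. Kit-positive barcodes held 27.3% and 18.1% of all Gata1 UMIs in Y665H, 44.2% and 20.9% in WT, and 44.2% and 38.6% in Y665F. Over all kept barcodes Gata1 stood at 104 and 66.0 CPM in Y665H, 105 and 77.4 in WT, and 35.1 and 34.7 in Y665F. Gata2 stood at 23.2 and 30.5, 31.7 and 34.2, and 90.2 and 120 CPM. A Kit UMI thus enriched little or not at all for these 2 factors. Kit-positive barcodes are part of all kept barcodes, so the 2 results are not separate evidence. As for Kit-positive barcodes alone, Cebpe was lost without WT replicate 1 (1.07, adjusted p = 0.0682) and without Y665F replicate 1 (0.77, adjusted p = 0.175).

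The Y665H libraries gave no call against WT. In Kit-positive barcodes the 10 log2 fold changes ran from -0.35 for Runx1 to 0.91 for Cebpe, with SE from 0.227 to 0.656. Across all genes edgeR called 0, with 591 of 11725 at an unadjusted p under 0.05, and DESeq2 also called 0, with 378. Without WT replicate 2 edgeR called 67 genes (0.543%), and without any other single library 0 to 11, with no factor among them. In Gata2, Spi1, Irf8 and Gfi1 both Y665H libraries lay under both WT libraries, as in 30.4% of all genes, and in Cebpe both lay above, as in 5.86% of all genes.

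Set directly against Y665H, Y665F differed in 8 factors of Kit-positive barcodes, where 42.7% of all genes passed (15.1% without Y665H replicate 1 and 23.8% without Y665F replicate 2). Gata1 was lower by a log2 fold change of -1.73, Klf1 by -1.93 and Gfi1b by -1.47. Gata2 (1.65), Runx1 (1.72), Cebpa (1.60), Gfi1 (1.88) and Irf8 (0.86, adjusted p = 0.0146) were higher. Cebpe at 1.18 (edgeR adjusted p = 0.0503) and Spi1 at 0.49 (edgeR adjusted p = 0.0800) did not pass. Over the alternatives, factor calls of this comparison were gained 8 times, by Cebpe or Spi1, and lost 4 times. Irf8 was lost without Y665H replicate 1 (0.71, adjusted p = 0.182) and without Y665F replicate 2 (0.33, adjusted p = 0.404), and Gfi1 was lost without Y665H replicate 1 (1.64, adjusted p = 0.0507). Over all kept barcodes 7 factors passed, against 44.3% of genes (18.4% without Y665H replicate 1 and 25.8% without Y665F replicate 2), the 8 above less Irf8 (0.35, adjusted p = 0.235). These comparisons and those against WT share the Y665F libraries.

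To hold cell type closer, Kit-positive barcodes were gated by markers that include none of the 10 factors. A barcode entered a gate when it held at least 2 distinct markers of that list and more than of any other list. Erythroid-like barcodes (Car1, Epor, Rhag, Ermap, Hemgn, Cldn13, Aqp1, Sphk1) made up 41.3% and 30.4% of Kit-positive barcodes in Y665H, 29.4% and 29.4% in WT, and 12.3% and 6.77% in Y665F. Granulocyte-monocyte-like barcodes (Mpo, Elane, Prtn3, Ctsg, Ms4a3, Ly86, Csf1r, Fcgr3) made up 28.1% and 25.6%, 36.4% and 24.9%, and 45.7% and 53.7%. The genes of these gates differed between genotypes, so gate sizes are given as a description only.

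The factors differed in level between gates. In WT, Gata1 stood at 174 and 129.9 CPM in erythroid-like barcodes against 25.2 and 41.7 in granulocyte-monocyte-like ones, and Klf1 at 203 and 135 against 25.2 and 18.3. Spi1 stood at 12.8 and 16.7 CPM in erythroid-like barcodes against 153 and 124 in granulocyte-monocyte-like ones. For Irf8 the levels were 9.02 and 5.58 against 156 and 107 CPM. Cebpe had 0 and 1 UMI in the erythroid-like WT barcodes and 3 and 6 in the granulocyte-monocyte-like ones. Megakaryocyte-like barcodes, 27 to 277 in each WT or Y665F library, held Gata2 at 151 and 92.4 CPM in WT and 132 and 145 in Y665F.

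Within the erythroid-like gate 8 factors could be tested and 6 passed between Y665F and WT, against 19.1% of 9277 genes. Gata1 stood at 149.7 and 102 CPM in Y665H, 174 and 129.9 in WT, and 82.8 and 63.1 in Y665F. The log2 fold change was -1.13 (SE 0.271, adjusted p = 0.00535), with both Y665F libraries under the other 4. Klf1, at 158 and 137, 203 and 135, and 109 and 69.9 CPM, had -0.98 (SE 0.279, adjusted p = 0.0158). Gfi1b, at 71.9 and 43.4, 101 and 58.8, and 50.1 and 42.9 CPM, had -0.86 (SE 0.268, adjusted p = 0.0252), although Y665F replicate 1 lay above a Y665H library.

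In the same gate Gata2 was higher in Y665F. It stood at 17.5 and 21.1 CPM in Y665H, 20.2 and 24.4 in WT, and 42.6 and 84.6 in Y665F, with a log2 fold change of 1.35 (SE 0.282, adjusted p = 0.00207). Runx1 stood at 17.3 and 28.2, 32.2 and 19.3, and 48.5 and 109 CPM, with 1.41 (SE 0.302, adjusted p = 0.00249). Cebpa passed at 1.94 (SE 0.615, edgeR adjusted p = 0.0273) on 6 and 3 UMIs in Y665H, 7 and 2 in WT, and 21 and 15 in Y665F. Free RNA from other cells was not taken out of these gate sums.

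The remaining factors of the erythroid-like gate did not pass. Spi1 had a log2 fold change of 0.51 (adjusted p = 0.254) and Irf8 of 0.97 (adjusted p = 0.123), while Cebpe and Gfi1 were too sparse to test. Each of the 6 calls was lost without WT replicate 1 or without Y665F replicate 2. Over all alternatives, factor calls of this gate were lost 15 times and gained 1 time, so some were lost in other settings as well. Without WT replicate 1 Runx1 alone passed (1.76, adjusted p = 0.0137), with Gata2 at 1.12 (adjusted p = 0.0539) and Gata1 at -0.99 (adjusted p = 0.0661). Without Y665F replicate 2 Gata2 alone passed (0.97, adjusted p = 0.0368), with Runx1 at 0.91 (adjusted p = 0.0527) and Gata1 at -0.86 (adjusted p = 0.0711).

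**Figure D2:**
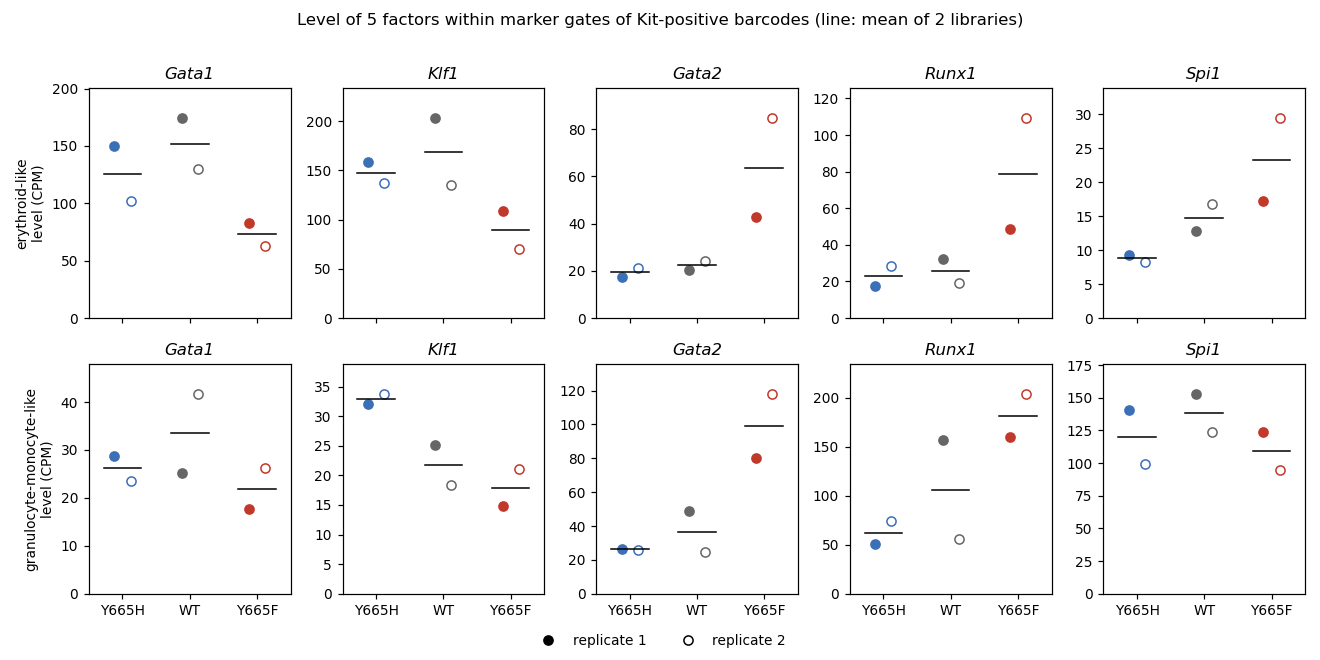
Level of 5 factors (vertical axes, CPM, from 0) in erythroid-like Kit-positive barcodes (upper row) and in granulocyte-monocyte-like ones (lower row) by genotype, with 1 point per library and a line at the mean of 2. Gata2 is highest in the Y665F libraries of both gates, at 42.6 and 84.6 CPM and at 80.3 and 118 CPM, while Gata1 and Klf1 are lowest in the Y665F libraries of the erythroid-like gate.

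Within the granulocyte-monocyte-like gate all 10 factors were tested and Gata2 was the factor that passed, against 5.84% of 9247 genes. It stood at 26.5 and 25.9 CPM in Y665H, 48.7 and 24.4 in WT, and 80.3 and 118 in Y665F. The log2 fold change was 1.49 (SE 0.293, adjusted p = 0.00893), and without Y665F replicate 2 it was 1.27 and did not pass (adjusted p = 0.0700).

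The myeloid factors did not pass in this gate. Cebpa had a log2 fold change of 0.73 (adjusted p = 0.165), Gfi1 of 0.98 (adjusted p = 0.209), Cebpe of 1.18 (adjusted p = 0.3), Spi1 of -0.29 (adjusted p = 0.604) and Irf8 of -0.38 (adjusted p = 0.459). Runx1 had 0.86 (adjusted p = 0.132), with WT replicate 1 at 157 CPM beside the Y665F libraries at 159.7 and 204 and WT replicate 2 at 55.9. Without WT replicate 1 Runx1 had 1.51 (adjusted p = 0.00634) and Gata1 -1.12 (adjusted p = 0.0335), and both then passed with Gata2.

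In the smaller gates no factor passed. In megakaryocyte-like barcodes Gata2 (0.23) and Runx1 (0.96, adjusted p = 0.196) were tested, where 0.702% of 1851 genes passed. In lymphoid-like barcodes Spi1, Irf8 and Runx1 (1.24, adjusted p = 0.311) were tested, where 0.0366% of 2733 genes passed. Stem-like barcodes (14 to 34 in Y665H and WT libraries, 306 and 255 in Y665F) and basophil-mast-eosinophil-like ones (0 to 12 a library) were too few in some libraries to fit. In the gates that were fitted, no factor passed between Y665H and WT. That held without WT replicate 2 too, where 492 genes (4.83%) passed in the granulocyte-monocyte-like gate and 73 (2.18%) in the lymphoid-like one.

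**Figure D3:**
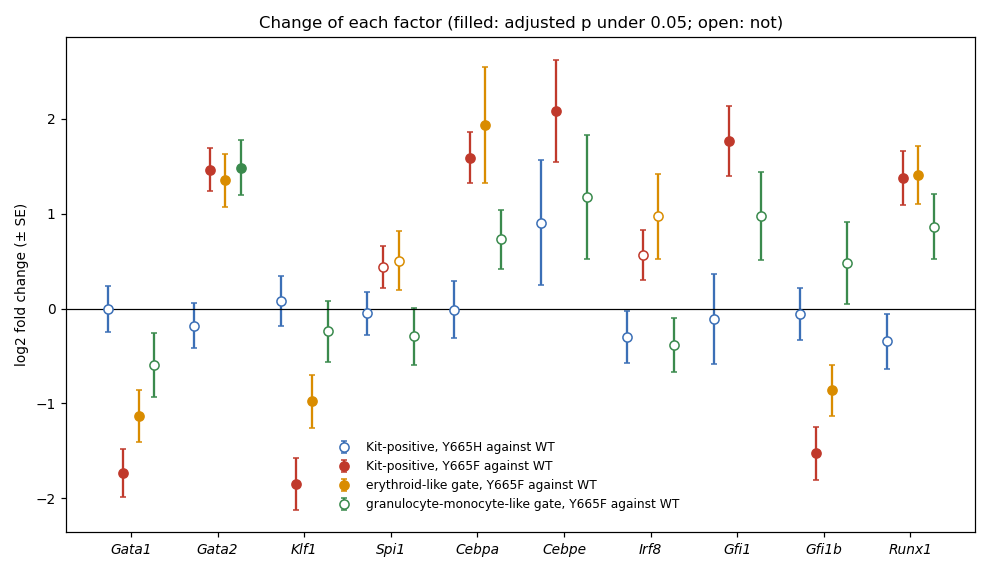
Log2 fold change of each factor with its SE (vertical axis) for Y665H against WT and Y665F against WT in Kit-positive barcodes, and for Y665F against WT in the erythroid-like and granulocyte-monocyte-like gates, filled where the adjusted p is under 0.05. Gata2 is filled in all 3 Y665F series, at 1.46, 1.35 and 1.49, and no Y665H point is filled.

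Genes that these factors are known to control, taken from lists, are given next for Kit-positive barcodes between Y665F and WT, where 12.9% of all genes passed as higher and 14.9% as lower. Of 9 tested erythroid genes bound by GATA1 or KLF1, 6 were lower and 0 higher (median log2 fold change -1.36), among them Car1 (-3.18), Hba-a1 (-2.11) and the erythropoietin receptor Epor (-1.65). Of 7 megakaryocyte genes 5 were higher and 0 lower (median 1.35), among them Pf4 (2.48), Itga2b (2.14) and Plek (1.35).

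Of 10 myeloid genes bound by PU.1 or C/EBPα, 4 were higher and 1 lower (median 0.41), with Csf3r at 1.33, Itgam at 1.33, Ctsg at 1.01 and Mpo at 0.86. Of 8 secondary granule genes 7 were higher (median 5.18), with Camp at 7.26 and Ngp at 5.83 on the log2 scale. Chil3 rose from 0.17 and 0 CPM in WT to 18.1 and 6.33 in Y665F and Ltf from 0.17 and 0.48 to 33.0 and 12.1, too low in WT for a fold. Ngp stood at 72.3 CPM in Y665H replicate 2, above Y665F replicate 2 at 53.5. Camp ran from 0.72 to 27.7 CPM in the WT and Y665H libraries and stood at 378 and 169 in Y665F. Of 7 genes of the IRF8 stage 2 were lower (median -0.14), namely Cd74 (-1.28) and Ly86 (-1.20).

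Of 6 mast cell, basophil and eosinophil genes, a fate in which GATA2 acts, 3 were higher (median 1.28). These were Prss34 (2.14), Mcpt8 (1.86) and Prg2, the eosinophil major basic protein, at 0 and 0.72 CPM in WT and 31.0 and 26.4 in Y665F. Of 20 further lineage factors 6 were higher and 0 lower (median 0.46), with the stem cell factors Mecom (2.22), Hlf (1.75) and Meis1 (1.45) and the megakaryocyte factor Fli1 (1.01) first by size. Some gate markers are on these lists. Between Y665H and WT no gene of any list passed.

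Sums do not show whether rivals meet in 1 cell, so detection was compared at a common depth. Each Kit-positive barcode was thinned to 2000 UMIs, and 481 to 2100 shallower barcodes a library were left out. At that depth Gata2 was found in 5.44% and 3.96% of barcodes in Y665H, 9.93% and 5.95% in WT, and 16.3% and 20.7% in Y665F. Before thinning the shares were 10.97% and 6.72%, 14.2% and 9.18%, and 24.3% and 26.8%. Background was read in barcodes with no Kit UMI and at least 2 distinct markers of B cells, mature neutrophils or late erythroid cells, which could hold markers of another of these lists as well. In B cell barcodes, which should lack Gata2, the thinned share was 0% to 4.35% in WT and Y665H and 5.26% and 10.3% in Y665F. Mature neutrophil barcodes were gated without excluding progenitor markers other than Kit, and whether all were neutrophils was not tested. They held Gata2 in 11.9% and 18.8% in Y665F, close to the Kit-positive shares of 16.3% and 20.7%. They held it in 22.2% (2 of 9) and 6.67% (1 of 15) in WT and 7.69% (1 of 13) in Y665H replicate 1, each above the Kit-positive share of its library. In Y665H replicate 2 the B cell share of 4.35% was above the Kit-positive one. Late erythroid barcodes held Gata2 in 1.47% to 2.70% in Y665H and WT, and in 12.5% (2 of 16) and 11.1% (1 of 9) in Y665F. The detection of Gata2 in a single barcode is therefore not read as expression, and the part of free RNA in the Gata2 levels of the sums and gates was not tested.

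Gata1 was found in 17.8% and 14.5% of thinned barcodes in Y665H, 18.05% and 16.3% in WT, and 7.02% and 5.46% in Y665F. B cell barcodes held it in 1.75% and 8.70% of Y665H, 5.71% and 3.03% of WT, and 1.05% and 2.56% of Y665F. Mature neutrophil barcodes held Gata1 in 7.69% (1 of 13) in Y665H replicate 1 and 0 of 5 barcodes in replicate 2, 11.1% (1 of 9) and 13.3% (2 of 15) in WT, and 3.17% and 6.99% in Y665F. In Y665F replicate 2 the Kit-positive share of Gata1 thus lay above that of B cells and under that of neutrophils, and it is not read as expression. Spi1 was found in 9.77% and 7.04%, 12.9% and 8.99%, and 14.9% and 14.8%. Late erythroid barcodes, which should lack Spi1, held it in 0% to 11.1%, the highest being 1 of 9 barcodes in Y665F replicate 2. Of the 8 late erythroid barcodes of that library without as many markers of another list, 0 held Spi1 before thinning.

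No share passed a trend test. The smallest p that the 90 arrangements of 6 libraries allow is 0.0222, which Gata2 reached (exact permutation test, two-sided), and its p adjusted over the 10 factors was 0.133. At least 5 of the 10 factors at the smallest p would be needed for any to pass after adjustment. Runx1 was found in 24.1% and 31.3% of Kit-positive barcodes of Y665F, and in 25% and 25.3% of its mature neutrophil barcodes. Cebpa was found in 4.82% and 5.12% of Kit-positive barcodes of Y665F, and in 3.17% and 5.91% of its mature neutrophil barcodes. For each factor the neutrophil share was the higher in 1 library and the lower in the other. Late erythroid barcodes held Runx1 in 1.61% to 5.41% in Y665H and WT, and in 18.8% (3 of 16) and 22.2% (2 of 9) in Y665F. The part of free RNA in the Runx1 level of the erythroid-like gate was not tested.

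Gata1 and Spi1, the classic rivals, were seldom found together. Of barcodes with Gata1, 3.72% and 2.02% also held Spi1 in Y665H, 5.50% and 4.88% in WT, and 4.88% and 13.0% in Y665F. Of barcodes without Gata1, 11.1% and 7.89% held Spi1 in Y665H, 14.5% and 9.79% in WT, and 15.7% and 14.9% in Y665F. The log2 odds ratio of finding both was -1.62 and -1.75 in Y665H, -1.45 and -0.98 in WT, and -1.81 and -0.21 in Y665F. It was negative in 6 of 6 libraries, of which Y665F replicate 2 had less Gata1 than its neutrophils. The 95% interval of Spi1 in Gata1 barcodes covered the share without Gata1 in WT replicate 2 (1.81% to 10.3%) and Y665F replicate 2 (8.73% to 18.3%). The ratio did not separate the genotypes (exact permutation test of the trend, p = 0.578, adjusted over 11 pairs 0.844). At least 5 of the 11 pairs at the smallest p would be needed for any to pass. The doubly positive barcodes numbered 9 and 2, 6 and 6, and 12 and 27.

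Klf1 was found in 17.1% and 15.8% of thinned Kit-positive barcodes in Y665H, 18.2% and 14.7% in WT, and 6.05% and 5.04% in Y665F. Mature neutrophil barcodes held it in 23.1% and 20% in Y665H (3 of 13 and 1 of 5), 11.1% and 20% in WT (1 of 9 and 3 of 15), and 5.16% and 3.23% in Y665F. B cell barcodes held it in 3.51% of 57 and 13.0% of 23 in Y665H, 0 of 35 and 2.02% of 99 in WT, and 2.11% of 95 and 0 of 39 in Y665F, below the Kit-positive share each time. The neutrophil share was above the Kit-positive one in both Y665H libraries and in WT replicate 2, on these few barcodes, so the background of Klf1 was not settled there. Klf1 and Spi1 gave log2 odds ratios of -1.93 and -1.37 in Y665H, -1.74 and -3.10 in WT, and -1.84 and -0.34 in Y665F. In Y665F replicate 2, 11.98% of Klf1 barcodes held Spi1, against 4.72% in Y665F replicate 1. For Gata1 and for Klf1 the ratio nearest 0 was that of Y665F replicate 2. Doublet-like barcodes removed before this count were 3.40% to 15.0% of a library, a share fixed by its number of barcodes. That share was therefore highest in the Y665F libraries, which held the most barcodes, and it does not measure doublets.

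Gata1 and Cebpa were found together in 1 and 0 barcodes in Y665H, 0 and 0 in WT, and 5 and 6 in Y665F. The count of 0 in WT, taken as 3 counts at most, allows a share of up to 0.497% and 0.397% of the thinned barcodes. Irf8 with Cebpe (1 and 3) and Gfi1 with Gfi1b (0 and 2) had their doubly positive barcodes only in Y665F, whose libraries held 3506 and 3810 thinned barcodes against 604 to 1361 in the others. Irf8 and Gfi1 were found together in 1 WT barcode and in 6 and 7 Y665F barcodes. Mature neutrophil barcodes of Y665F held Irf8 in 9.52% and 19.4%, against 7.30% and 15.7% of Kit-positive ones. The counts of these pairs were too low to compare genotypes at this depth, and they are not read as cells that express both.

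**Figure D4:**
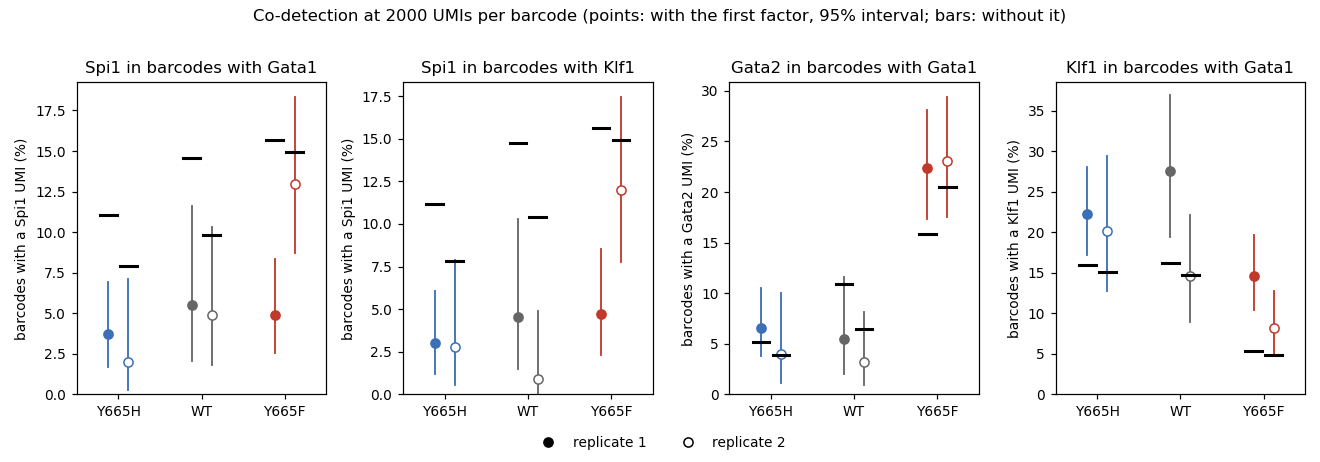
Share of thinned Kit-positive barcodes with a UMI of the second factor (vertical axes, percent) among barcodes with the first factor (points with exact 95% intervals of counting) and among barcodes without it (bars), by genotype and library. The Spi1 points of Gata1 and Klf1 barcodes lie under the bars in every library, least so in Y665F replicate 2. The interval covers the bar for Gata1 in WT replicate 2 and Y665F replicate 2, and for Klf1 in Y665H replicate 2 and Y665F replicate 2. Klf1 is more frequent in Gata1 barcodes in all libraries except WT replicate 2.

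Partners of a lineage were counted in the same way. Klf1 was found in 22.3% and 20.2% of Gata1 barcodes in Y665H, 27.5% and 14.6% in WT, and 14.6% and 8.17% in Y665F. The log2 odds ratio of Gata1 and Klf1 was 0.60 and 0.53, 0.99 and 0.02, and 1.60 and 0.84. Gata1 with Gfi1b gave 0.39 and 0.46, 0.21 and 0.16, and 1.06 and 0.84. In WT replicate 2 Klf1 was found in 14.6% of barcodes with Gata1 and 14.7% of those without. Gfi1b was found in 8.44% and 5.42% of Kit-positive barcodes in WT and 2.68% in Y665F replicate 2, and in 11.1% (1 of 9), 6.67% (1 of 15) and 5.38% of mature neutrophil barcodes of these libraries. B cell barcodes of the same libraries held it in 0 of 35, 2.02% of 99 and 0 of 39, so the background of Gfi1b was not settled either. No partnership is read from these ratios, and neither pair passed a trend test (adjusted p = 0.844 in the exact permutation test).

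Gata1 with Gata2 gave log2 odds ratios of 0.40 and 0.17 in Y665H, -0.97 and -0.90 in WT, and 0.62 and 0.23 in Y665F. Of Gata1 barcodes, 6.61% and 4.04% held Gata2 in Y665H, 5.50% and 3.25% in WT, and 22.4% and 23.1% in Y665F. Without Gata1 the shares were 5.18% and 3.95%, 10.9% and 6.48%, and 15.9% and 20.5%. Since Gata2 in a single barcode was not read as expression, nor Gata1 in Y665F replicate 2, these values are not read as cells that express both. Within erythroid-like barcodes 8 and 1, 6 and 2, and 17 and 5 held both. Cebpa with Spi1 had positive ratios in all 6 libraries, from 0.20 to 2.79, on 2 to 35 doubly positive barcodes. Late erythroid barcodes held Cebpa in 0% in every library, and B cell barcodes in 0% to 2.86%. In WT replicate 1 the B cell share of 2.86% (1 of 35) was above the Kit-positive one of 2.48%. Neutrophils are myeloid cells, so their share does not give the background of Cebpa. On these few barcodes the positive ratios are not read as cells that express both.

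Background UMIs also enter the number of factors found in a barcode. Barcodes in which none of the 10 was found at 2000 UMIs were 43.3% and 50% in Y665H, 34.6% and 48.0% in WT, and 38.3% and 31.2% in Y665F. Barcodes with 3 or more factors were 1.84% and 2.05%, 3.31% and 1.32%, and 4.28% and 6.43%.

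The balance of paired factors within a library needs no scaling between libraries. Of the Gata1 and Gata2 UMIs of Kit-positive barcodes, Gata1 took 81.6% and 73.2% in Y665H, 77.6% and 74.2% in WT, and 31.2% and 20.7% in Y665F. Of the Gata1 and Spi1 UMIs, Gata1 took 72.2% and 60.9%, 69.8% and 63.6%, and 32.8% and 28.5%. In both balances the Y665F libraries lay apart from the other 4, and WT and Y665H overlapped. These shares compare libraries and do not say which gene of a pair was the higher.

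Gfi1b took 97.3% and 94.5% of the Gfi1b and Gfi1 UMIs in Y665H, 97.2% and 94.6% in WT, and 76.0% and 67.2% in Y665F. Irf8 took 94.8% and 94.4% of the Irf8 and Gfi1 UMIs, 95.8% and 94.7%, and 85.8% and 92.1%. Cebpe took 22.9% and 20% of the Cebpe and Cebpa UMIs, 7.84% and 18.4%, and 21.3% and 11.8%, with no order by genotype. None of the 5 balances passed the trend test in the order Y665H, WT, Y665F (exact permutation test, two-sided, adjusted p from 0.296 to 0.578), for which at least 3 of the 5 would have to reach the smallest p of 0.0222.

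**Figure D5:**
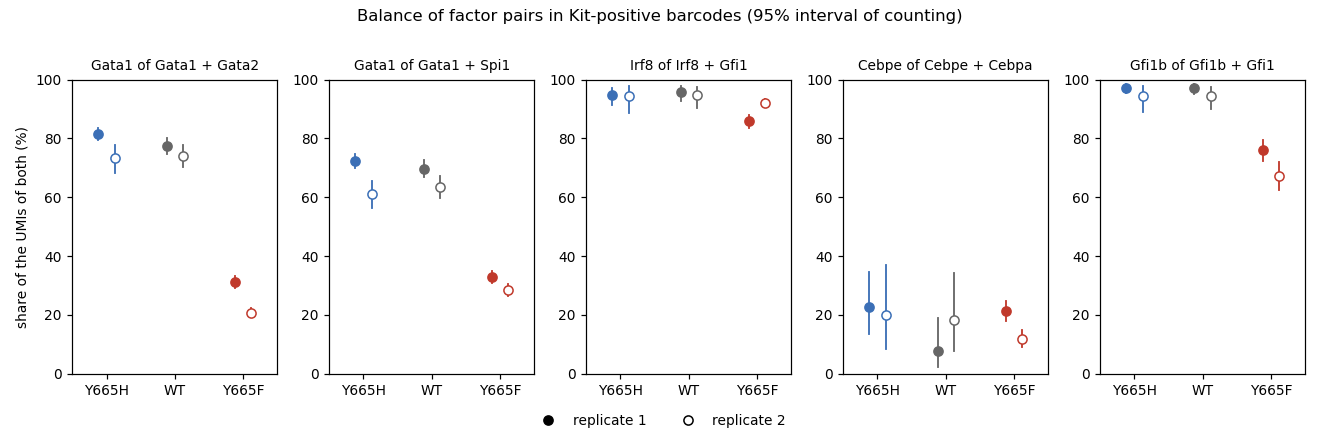
Share of the UMIs of a pair taken by the first factor (vertical axis, percent, 0 to 100) in Kit-positive barcodes of each library, with exact 95% intervals that cover counting only. Gata1 takes 73.2% to 81.6% of the Gata1 and Gata2 UMIs in WT and Y665H libraries and 20.7% to 31.2% in Y665F libraries.

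Outside marrow, lymph node was the tissue with replicates. There 5 of the 10 factors could be tested between homozygous Y665F and WT (edgeR, 2 libraries each, with 3 heterozygous libraries in the fit), and 2 passed, against 4.6% of 11471 genes. Spi1 stood at 56.5 and 37.7 CPM in WT, 25.2, 32.1 and 25.7 in heterozygous and 18.9 and 21.6 in homozygous libraries, a log2 fold change of -1.10 for homozygous against WT (SE 0.226, adjusted p = 0.0260). Irf8 stood at 174 and 115 CPM in WT, 67.4, 80.4 and 82.6 in heterozygous and 56.0 and 52.4 in homozygous libraries (-1.33, SE 0.199, adjusted p = 0.00743). B cells make both factors, and 3 B cell markers (Cd79a, Cd79b and Ms4a1), detected in all libraries, summed to 2839 and 1687 CPM in WT, 1147 to 1407 in heterozygous and 960.2 and 1094 in homozygous libraries. Their part in the Spi1 and Irf8 levels was not tested. Gfi1 (0.70, adjusted p = 0.171), Runx1 (-0.35, adjusted p = 0.338) and Gata1 (0.03, adjusted p = 0.997) did not pass. Without homozygous replicate 1 Spi1 had -0.999 (adjusted p = 0.154) and Irf8 -1.35 (adjusted p = 0.0593). Without homozygous replicate 2 they had -1.25 (adjusted p = 0.128) and -1.31 (adjusted p = 0.0845). Without WT replicate 1 Spi1 had -0.76 and was lost as well (adjusted p = 0.0817).

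Over the 29 sums of a gate in a library, the genes with a level most like that of each factor were found by Pearson's r of log2(CPM + 1) among 11613 genes, as a description without a test, since the sums share libraries and depth. Gata1 was most like Gpx4 (0.80), Hmgb3 (0.79) and Sdhd (0.77), and Klf1 most like Pla2g12a (0.84). Gata2 was most like Ap2b1 (0.90) and Ctdspl (0.84), and Runx1 most like Sptan1 (0.93). Spi1 was most like Alox5ap (0.93), Vim (0.92) and Serpinb1a (0.92), Cebpa most like Slc36a1 (0.95), and Irf8 most like Clec12a (0.88). Gfi1 was most like Snx24 (0.86), Gfi1b most like Cers2 (0.80) and Cebpe most like Gm15987 (0.80).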

How the data were processed

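Bone marrow, lymph node and spleen libraries were made with the 10x Genomics Chromium system. The deposited matrices hold raw UMI counts per gene and barcode, the output of the authors' run of Cell Ranger (6.0.0 in the marrow headers, 5.0 in the submitters' processing notes, which also name Seurat 4.0) against the mouse GRCm38/mm10 genome. The labels name a 3′ kit and the methods a 5′ kit, and which was used in marrow was not settled here. T cell receptor files were not used here.

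Barcodes were dropped below 200 detected genes or above 10% of UMIs from mitochondrial genes, and doublet-like barcodes were removed by their similarity to simulated doublets (0.8% expected per 1000 barcodes), in marrow only. UMIs were summed per library, and CPM is the sum per 1000000 UMIs of the same barcodes. The 3 genotypes were fitted together with edgeR 4.0.16 (TMM, filterByExpr, quasi-likelihood test, Benjamini-Hochberg over all genes tested, adjusted p under 0.05) in R 4.3.3. DESeq2 1.42.0 was an alternative. Detection, co-detection and balances were compared by exact permutation of the Jonckheere-Terpstra statistic in Python 3.11.15, with 0.5 added to each count of an odds ratio. Intervals cover counting error only, since UMIs of a barcode share a cell. In simulated Kit-positive counts for Y665F against WT (11524 genes), 61% of 100 genes changed by a log2 fold of 1 and 98% of 100 changed by 2 were recovered, and 2.45% of calls were false. The simulation gave all genes the same spread, and the changed genes were few and well counted. These rates therefore need not hold for the real calls or for sparse factors.

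All 10 members are named, and from each list at most 4 passing genes with the largest change, except that some items are not reported here. The members, lists and tests were chosen with earlier results of these data known.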

Additional observations from a re-analysis of the deposited data

Results flagged for a closer look

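The difference of Spi1 between the means of mutant and WT libraries had opposite signs in lymph node and marrow. The mean of log2(CPM + 1) in homozygous Y665F minus WT was -1.15 in lymph node, where both mutant libraries lay under both WT libraries, and Y665F minus WT was 0.32 over all kept marrow barcodes, where both lay above. The marrow difference did not pass in the fit (0.16, edgeR adjusted p = 0.572) and ran from -0.041 to 0.34 when 1 library was left out, so its direction is not settled. The means also differed in sign for Cebpa, at -0.63 in lymph node on 1 and 3 UMIs in the mutant libraries and 1.62 in marrow, and for Runx1, at -0.47 in lymph node and 1.44 in marrow. Both passed in the marrow fit (1.59 and 1.28 by edgeR), while in lymph node Cebpa was too sparse to test and Runx1 did not pass. Within marrow, Spi1 differed by 0.59 in erythroid-like and by -0.34 in granulocyte-monocyte-like Kit-positive barcodes, again without overlap between Y665F and WT in either gate. These differences between tissues and between gates were not tested. The share of all genes whose libraries separate in this way was not counted, so nothing particular to these factors is read from them. The lymph node files name another Cell Ranger version than the marrow files, so tissue and processing cannot be told apart.

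Cebpe was found in spleen, which no comparison above used, at 10.95 CPM in the Y665H library (exact Poisson interval 10.0 to 11.9) and 41.9 CPM in the Y665F library (39.8 to 44.1), above 1.19 CPM in the WT library (0.88 to 1.58). The 4 mature neutrophil markers moved with it, at 1335 CPM together in WT, 11267 in Y665H and 20809 in Y665F, and their part was not tested. Each genotype had 1 spleen library, so these values have no replicate check.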

How the results depend on the processing

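Over 104 results and 1382 alternatives, 1307 were labeled the same, 31 weaker, 20 stronger and 24 reversed in sign. For a single value the same means that direction and side of the threshold were kept. For a count of passing items it means an equal or close count, and weaker or stronger a clearly lower or higher one. Trend tests without 1 library (smallest p 0.0667) or within replicate number could not pass, so their side of the threshold was fixed in advance. Their compared value was the Y665F minus Y665H difference. Leaving out a WT library or adding the replicate block could not change it, so its direction was fixed as well. Such alternatives were labeled the same. The cause of these changes was not tested. The number of factors passing between Y665F and WT ran from 1 to 7 in the erythroid-like gate, from 0 to 3 in the granulocyte-monocyte-like gate and from 0 to 1 in the lymphoid-like gate when 1 library at a time was left out, against 4.8% to 26.5%, 0.778% to 12% and 0.239% to 1.58% of all genes. In the lymphoid-like gate it was also 1 with no filter on low counts, with doublet-like barcodes kept and with all deposited barcodes (Gata2 each time), against 0.157% to 0.377% of all genes. In lymph node the count ran from 0 to 2, against 0.817% to 5.73%. Leaving out 1 library, the log2 fold change over all kept barcodes ran from -0.041 to 0.34 for Spi1 (Y665F against WT), from -0.28 to 0.35 for Irf8 (Y665F against WT) and from -0.015 to 0.62 for Irf8 (Y665F against Y665H). It ran from -0.027 to 1.69 for Irf8 in the erythroid-like gate and from -1.12 to 0.068 for Gata1 in the granulocyte-monocyte-like gate. In barcodes with at least 2 Kit UMIs Cebpe lost its call against WT (1.73, adjusted p = 0.157) and Irf8 gained one (1.09, adjusted p = 0.0223). That setting was not run in the gates, and thinning does not apply to balances and the Kit-positive share.

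The Y665F minus Y665H difference of the mean log2 odds ratio turned sign for several pairs. Thinned to 1500 UMIs it was -0.34 for Gata1-Gfi1b, and unthinned -0.044 for Gata1-Gfi1b and -0.37 for Gata1-Klf1, against 0.53 and 0.65 as reported. With Kit called after thinning it was -0.070 for Gata1-Spi1, -0.27 for Klf1-Spi1 and -0.31 for Gata1-Gata2. With at least 2 Kit UMIs it was -0.75 for Gata1-Spi1, -3.05 for Gata1-Cebpa, -0.70 for Klf1-Spi1 and -0.012 for Gata1-Gata2. It was -0.020 for Klf1-Spi1 with doublet-like barcodes kept, and without the top 10% of UMIs 0.073 for Irf8-Cebpe, 0.35 for Cebpa-Spi1 and -0.13 for Gata1-Gata2. Leaving out 1 library it ran from -0.12 to 1.48 for Gata1-Spi1, -0.18 to 1.31 for Klf1-Spi1, -0.059 to 0.33 for Gata1-Gata2 and -2.62 to 0.59 for Gfi1-Gfi1b. Gata1-Cebpa, Irf8-Cebpe and Gfi1-Gfi1b had 0 doubly positive barcodes in some libraries as reported, where the ratio rests on the 0.5 added to each count. Irf8-Cebpe, for example, had ratios of 2.18 and 2.41 in WT with 0 such barcodes. Sign turns of these pairs are therefore not read as changes. No genotype order in co-detection was read from these data.

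With the replicate number as a block, 8 factors passed in Kit-positive barcodes between Y665F and WT, against 28.9% of all genes, and 9 between Y665F and Y665H, against 43.6%, where Cebpe joined (1.195, adjusted p = 0.0364). Deviations of same-numbered libraries correlated at 0.21, 0.24 and -0.0037 over 11735 genes, and the number also divides the sexes, so this block takes out sex and was not shown to pair animals. Exact permutation within replicate number allows no p below 0.0556 in the trend tests.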

Other observations

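In spleen, with 1 library a genotype in the order WT, Y665H and Y665F, Gata2 stood at 3.02, 7.17 and 11.5 CPM and Cebpa at 1.14, 3.47 and 3.63 CPM. Spi1 stood at 38.7, 106 and 55.0 CPM and Irf8 at 122, 159 and 83.9 CPM.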
